A study of Rattus norvegicus with 192 samples.

Results

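The 36 genes described here are the clustered protocadherins of the rat: every gene of the deposited table whose symbol is Pcdha, Pcdhb, Pcdhga, Pcdhgb or Pcdhgc followed by a number, out of 38354 genes in all. They comprise 1 gene of the alpha cluster, 20 of the beta cluster and 15 of the gamma cluster. Levels were taken as counts scaled to a library total of 1000000 (CPM) in the 147 of 159 libraries that had at least 100 CPM of Drd1, the D1 dopamine receptor of medium spiny neurons. The members were chosen by symbol, without regard to their values.

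PolyA RNA had been sequenced from the core of the nucleus accumbens, part of the ventral striatum, in outbred heterogeneous stock rats, a colony bred from several inbred founder strains. The labels name neither a treatment nor a rat's sex or age nor any date or batch, so a label group may also stand for an unnamed batch. Each library carries an identifier of its own and was taken as 1 rat. Of the 147, 56 had an all-digit rat identifier (numeric label), 76 an identifier beginning with E21 (E21 label), 12 an E21 identifier that the submitters assigned after a genotype check (corrected E21 label), 2 an identifier beginning with AA1 and 1 another corrected identifier. Total expected counts ran from 14.6 to 61.2 M (1 M is that same 1000000) per library, so 1 CPM stood for 14.6 to 61.2 counts.

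Clustered protocadherins are cell surface proteins of the cadherin superfamily that bind copies of themselves on the facing membrane. Each variable exon carries its own promoter and encodes at least the outer part of 1 protein. In the alpha and gamma clusters the variable exons are spliced to constant exons shared by the whole cluster, whereas beta genes have no constant exon. A neuron opens a small, largely random choice of these promoters, with the help of CTCF and cohesin, which gives it a surface identity by which its own branches avoid one another. The C-type genes at the ends of the alpha and gamma clusters are the exception and are open in many neurons. A bulk tissue library adds up the choices of very many cells, so a difference in level here cannot tell fewer expressing cells from less RNA per cell.

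The 3 clusters lie in a row on chromosome 18 of the rat assembly GRCr8. All 36 table positions were the starts of the RefSeq genes of that assembly. Pcdha4 spans chr18:28688274-29120227 and is the only alpha gene that the rule found. Its RefSeq entry lists 12 other numbered alpha names and 22 transcripts, so its level stands for the alpha cluster as a whole, and no correlation within the alpha cluster could be had. The beta genes run from Pcdhb1, which starts at 29187848, to Pcdhb22, which ends at 29503142, and no neighbouring pair of their annotated spans overlapped. The gamma genes run from Pcdhga1, at chr18:29738639-29919095, to Pcdhgc5, at chr18:29898430-29917566. Of the 15 gamma genes, 12 share the same annotated end, since their annotation includes the constant exons. Of the C-type genes, Pcdhgc3 and Pcdhgc5 were among the members, and their alpha counterparts stand as older names of Pcdha4.

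The way reads were shared out between members differed by cluster. Reads from the constant exons can fit any gamma gene whose annotation includes them, so a count of such a gene may be an estimated share. Expected counts within 0.01 of a whole number were found in a median of 78.3% of libraries per beta gene and of 1.89% per gamma gene. Among beta genes the share was 13.8% for Pcdhb6 and 23.3% for Pcdhb8, against 98.1% for Pcdhb15 and Pcdhb21. How far the estimate moved the level of a single gamma gene was not tested.

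The promoter windows show what the members share in sequence. RefSeq windows of GRCr8, from 250 bases before to 50 bases after the gene start, existed for 32 of the 36 members. The 9 letters GGTGGCGCT occurred on either strand in 15 of 17 beta windows and in none of the 14 gamma genes' windows, against 0.457% of all 33469 promoter windows. They include the CGCT core of the conserved sequence element known from protocadherin promoters. A match is a description and not a shown binding site. The short windows below, each from GRCr8 on the plus strand and 5′ to 3′, hold the match in capitals and are given for beta genes described further on.

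Pcdhb5: atgaacgcagGGTGGCGCTgcaggctaaga
Pcdhb6: tagtacacacGGTGGCGCTgcagtctaagg
Pcdhb8: taggacacacGGTGGCGCTgcagtctaagg
Pcdhb9: aaagacacagGGTGGCGCTgcaggctaaga
Pcdhb19: gaagacacatGGTGGCGCTgcaggataatg
Pcdhb20: agagacacatGGTGGCGCTgtaggataaga
Pcdhb21: atagtcacatGGTGGCGCTgcaggatagga

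The windows lie, in the order printed, at chr18:29302404-29302433, chr18:29320152-29320181, chr18:29339258-29339287, chr18:29379248-29379277, chr18:29478764-29478793, chr18:29485810-29485839 and chr18:29492149-29492178. The match began 52 bases before the gene start in Pcdhb5 and in Pcdhb9, 229 bases before it in Pcdhb6 and 208 in Pcdhb8. A related form, GCTGTTNAC, occurred in 9 of 14 gamma genes' windows, in 1 of 17 beta windows (Pcdhb3, where it overlaps the other motif) and in 0.992% of all windows. The gamma lines below are shown because the levels of these genes moved apart or together in the libraries, with the matching letters in capitals, again from the plus strand. N stands for any base.

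Pcdhga1: GCTGTTCACcaacctggggtatacatgcac
Pcdhga2: tctgagcgtcGCTGTTGACcacctaaggag
Pcdhga7: tctgcgtgccGCTGTTCACcaaccatgaga
Pcdhga9: tctgagcgccGCTGTTCACcaactgtaaga
Pcdhga10: tctgagcgccGCTGTTCACctaccaggagc
Pcdhga12: tctgagcgccGCTGTTCACccacggggagg

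The gamma windows lie, in the order printed, at chr18:29738389-29738418, chr18:29745089-29745118, chr18:29794211-29794240, chr18:29815789-29815818, chr18:29825820-29825849 and chr18:29843868-29843897. The match of Pcdhga1 stood at the outer edge of its window, 250 bases before the start, where the others printed lay between 19 and 96 bases before it. Neither form was found in the windows of Pcdha4, Pcdhb1, Pcdhb15, Pcdhga4, Pcdhga11, Pcdhgb8, Pcdhgc3 or Pcdhgc5, which says only that these letters are not there. The 250 bases before the start of 4 members that the results turn on are given whole, with matches in capitals, at chr18:29320141-29320390 for Pcdhb6, chr18:29339226-29339475 for Pcdhb8, chr18:29738389-29738638 for Pcdhga1 and chr18:29898180-29898429 for Pcdhgc5, all on the plus strand.

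Pcdhb6: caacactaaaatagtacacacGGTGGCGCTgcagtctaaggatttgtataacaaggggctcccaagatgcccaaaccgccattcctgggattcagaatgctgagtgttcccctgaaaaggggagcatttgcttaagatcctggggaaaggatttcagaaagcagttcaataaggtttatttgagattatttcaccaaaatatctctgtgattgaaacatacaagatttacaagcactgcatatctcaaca
Pcdhb8: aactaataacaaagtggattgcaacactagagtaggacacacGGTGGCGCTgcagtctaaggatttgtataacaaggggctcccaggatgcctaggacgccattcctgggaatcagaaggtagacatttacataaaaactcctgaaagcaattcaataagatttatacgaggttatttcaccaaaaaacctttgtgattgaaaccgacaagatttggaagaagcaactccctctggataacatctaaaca
Pcdhga1: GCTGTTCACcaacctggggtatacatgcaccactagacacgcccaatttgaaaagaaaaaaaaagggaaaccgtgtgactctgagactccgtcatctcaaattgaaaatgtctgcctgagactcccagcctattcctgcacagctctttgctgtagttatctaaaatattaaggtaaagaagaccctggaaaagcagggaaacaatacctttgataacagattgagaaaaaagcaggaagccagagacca
Pcdhgc5: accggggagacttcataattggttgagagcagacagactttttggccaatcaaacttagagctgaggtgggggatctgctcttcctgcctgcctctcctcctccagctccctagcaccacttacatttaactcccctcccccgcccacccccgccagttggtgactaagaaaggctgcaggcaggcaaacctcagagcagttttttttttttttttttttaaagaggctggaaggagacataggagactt

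In local alignments of the windows, Pcdhb6 and Pcdhb8 scored first of 136 beta pairs, with 235 identical bases over 312 aligned positions (75.3%). Pcdhb7 with Pcdhb9 came second, with 72.7% over 293 positions. The GC content of the 250 bases was 41.6% for Pcdhb6, 40.8% for Pcdhb8, 42.8% for Pcdhga1 and 50.4% for Pcdhgc5.

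All 15 gamma genes, 18 of the 20 beta genes and Pcdha4 had a mean of at least 1 CPM, the level set for testing. The summed level of the gamma cluster was 991 ± 66 CPM (SD, n = 147), with a lowest library of 833, a median of 985 and a highest of 1181. The beta sum was 141 ± 18.1 CPM (SD, n = 147), from 97.6 through 141 to 179. The alpha level, that of Pcdha4, was 192 ± 27.6 CPM (SD, n = 147), from 112 through 198 to 235. The coefficient of variation was 6.67% for the gamma sum, 12.9% for the beta sum and 14.4% for Pcdha4. Counts are not scaled by transcript length, so no order of levels between genes is read from them.

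Among gamma genes, the C-type Pcdhgc3 ranged from 134 CPM through a median of 316 to 552, and the C-type Pcdhgc5 from 3.54 through 136 to 204. Together these 2 made up 46.8% of the gamma sum in the median library. Pcdhga2 ranged from 8.72 through 68.6 to 125 CPM, and Pcdhga5, the gamma gene with the lowest mean, from 0 through 14.6 to 29.0. In the beta cluster Pcdhb22 ranged from 13.5 through 21.6 to 37.4 CPM, Pcdhb17 from 10.5 through 16.7 to 24.2 and Pcdhb19 from 8.50 through 13.2 to 19.4. Pcdhb1, at the alpha end of the beta cluster, had a median of 0.0492 CPM and was at 0 counts in 45 of 147 libraries. Pcdhb2 had a median of 0.762 CPM. These 2 were the members left untested.

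**Figure D1:**
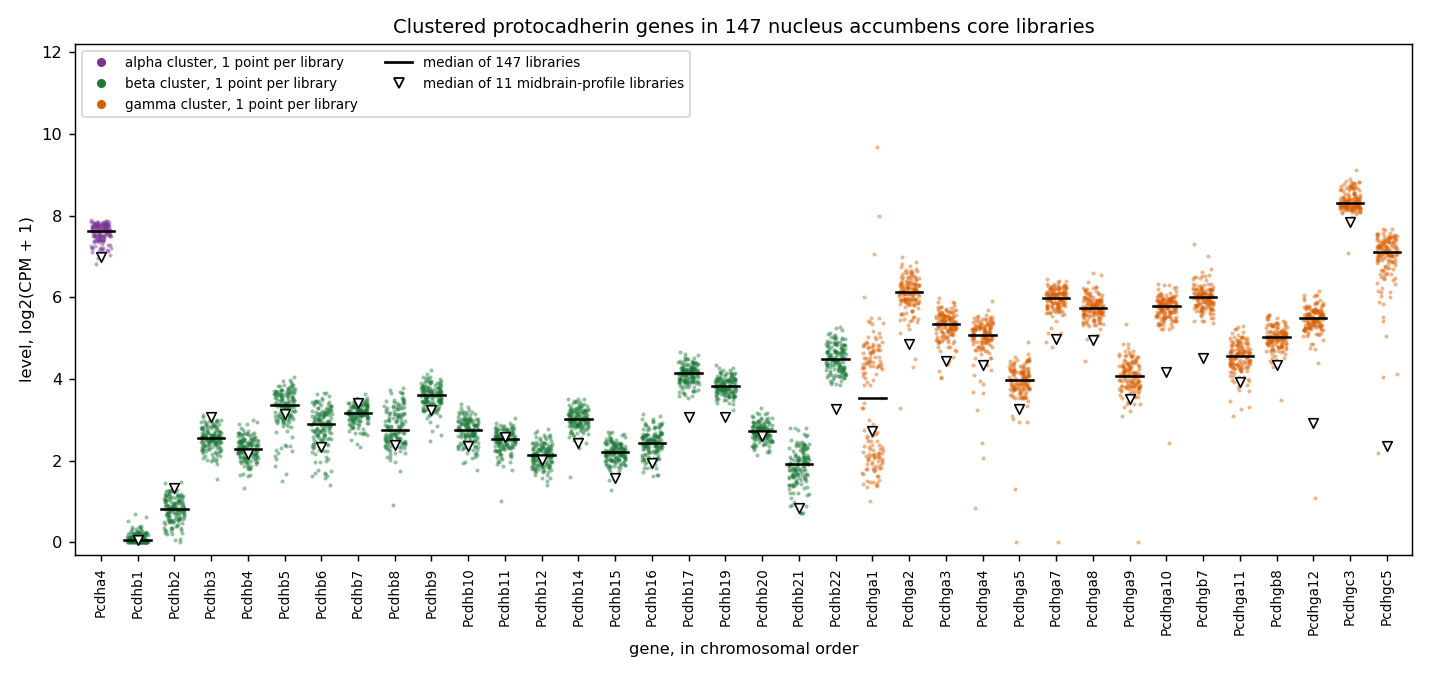
Level of each of the 36 genes, as log2(CPM + 1) on the vertical axis, in chromosomal order along the horizontal axis. Each point is 1 of 147 libraries, bars are medians and open triangles are medians of 11 further libraries with a midbrain profile. Pcdhga1 falls into 2 bands of libraries, with few between, and Pcdhgc5 has its triangle far below all but the lowest of its points.

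Between-library spread was taken as the SD of log2(CPM + 1). Its median was 0.31 over the 34 tested members, 0.27 over 18 beta genes and 0.46 over 15 gamma genes, beside 0.24 over all 15327 genes tested. An SD of at least 0.5 was found for 5 of 34 members, all of them gamma genes, and for 5.07% of all tested genes. The 5 were Pcdhga1 at 1.5, Pcdhgc5 at 0.69, Pcdhga4 at 0.61, Pcdhga7 at 0.56 and Pcdhga5 at 0.52. The steadiest members were Pcdhb19 at 0.21, Pcdhb20 at 0.21 and Pcdha4 at 0.22. Without 3 libraries described next, Pcdhga1 alone kept an SD of at least 0.5, and the gamma median was 0.31.

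Libraries with the E21 label numbered 5, 2 and 76 stood apart from the rest. On the first principal component of the 15327 genes, which held 26.8% of the variance, they lay at -3.98, -3.32 and -3.11, and the next library at -2.54. In number 5 Pcdhga1 was at 814 CPM, 69.1% of a gamma sum of 1177. In number 76 it was at 254 CPM (23.9% of the gamma sum) and in number 2 at 133 CPM (13.9%). The other 144 libraries had Pcdhga1 between 0.0974% and 6.53% of the gamma sum.

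The rest of the gamma cluster was low in library number 5 while its sum was not. Pcdhga5, Pcdhga7 and Pcdhga9 were at 0 counts in it, Pcdhga4 at 0.803 CPM, Pcdhga12 at 1.12 and Pcdhgc5 at 3.54. The lowest of the 144 other libraries had 6.68 CPM of Pcdhga5, 34.0 of Pcdhga7, 7.49 of Pcdhga9, 8.54 of Pcdhga4, 20.2 of Pcdhga12 and 32.3 of Pcdhgc5. Pcdhgb7, at 157 CPM, was above the highest of them (128). Pcdhgc5 was at 15.7 CPM in number 2 and at 16.3 in number 76, again below all 144. Drd1 was at 238, 318 and 295 CPM in the 3 libraries, within the range of the others. Pfn1, which encodes the actin-binding protein profilin, was at 335 to 502 CPM in the 3 and at 251 or less in the others. The part of what moves along this component in the gamma levels was not tested.

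**Figure D2:**
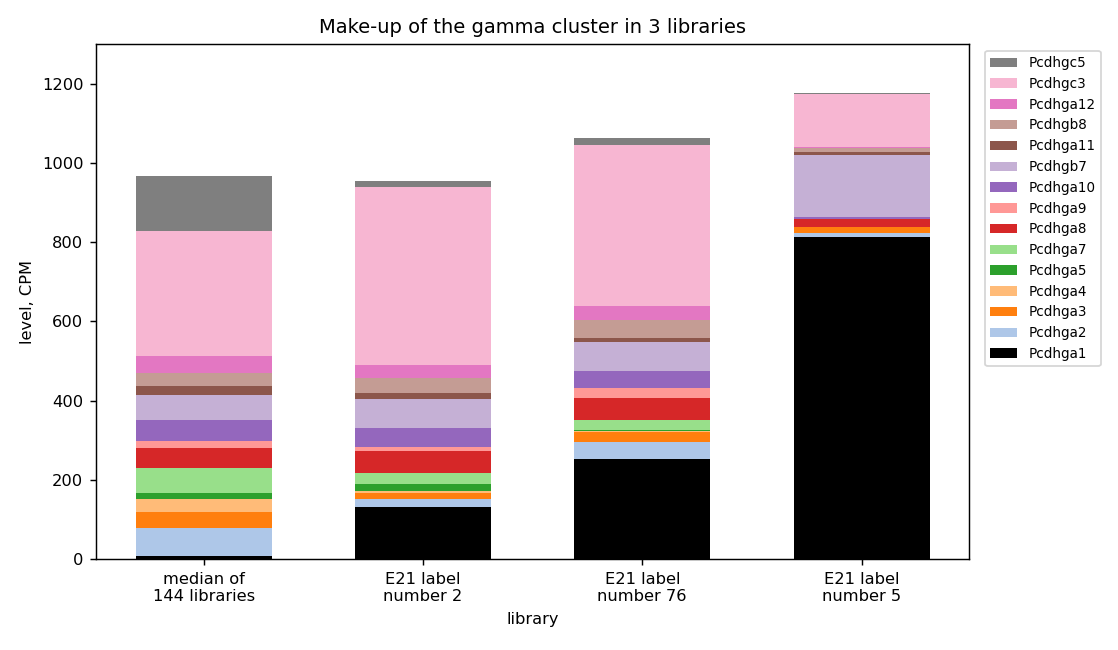
Stacked levels of the 15 gamma genes, in CPM on the vertical axis, for the median of 144 libraries (medians taken gene by gene) and for the libraries numbered 2, 76 and 5 of the E21 label. Pcdhga1, in black, takes 133, 254 and 814 CPM in the 3 libraries, and Pcdhgc5, at the top in grey, shrinks to 15.7, 16.3 and 3.54.

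Pcdhga1, the first gene of the gamma cluster, lay at 2 separate levels in nearly all of the 144 other libraries. It was below 7 CPM in 70 libraries, where it ran from 1.02 through a median of 3.22 to 6.95, and between 13 and 50 CPM in 69, where it ran from 13.4 through 24.0 to 44.1. Of the rest, 4 lay between 7 and 13 CPM and 1 above 50. The SD within each level was 0.41 and 0.40 on the log2 scale. Both levels occurred in both main label groups: 33 of 56 numeric-label libraries (58.9%) and 31 of 76 E21-label libraries (40.8%) were below 7 CPM.

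The lowest levels of Pcdhb5 were all seen away from the lower level of Pcdhga1. Of the 28 libraries with Pcdhb5 below 7 CPM, none had Pcdhga1 below 7 CPM and 27 had it at 13 CPM or more. Within the lower Pcdhga1 level the correlation of Pcdhb5 with Pcdhga1 was 0.024 (Pearson) and 0.021 (Spearman, n = 70), and within the upper level it was -0.292 and -0.105 (n = 69). For Pcdhga11 the Pearson r was 0.053 in the lower and -0.072 in the upper level, and for Pcdhb9 it was -0.052 and -0.20. Between the lower and the upper level the medians differed. They were 11.3 and 7.6 CPM for Pcdhb5, 7.85 and 4.89 for Pcdhb6 and 12.3 and 10 for Pcdhb9. For Pcdhga2 they were 77.5 and 61.5, for Pcdhga11 25.9 and 19.6 and for Pcdhga9 18.2 and 14.3. Pcdhb8 went the other way, with 4.85 and 7.88 CPM. These are descriptions without a test. Since the libraries fall into 2 levels, no pooled correlation of Pcdhga1 with a single gene is given.

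**Figure D3:**
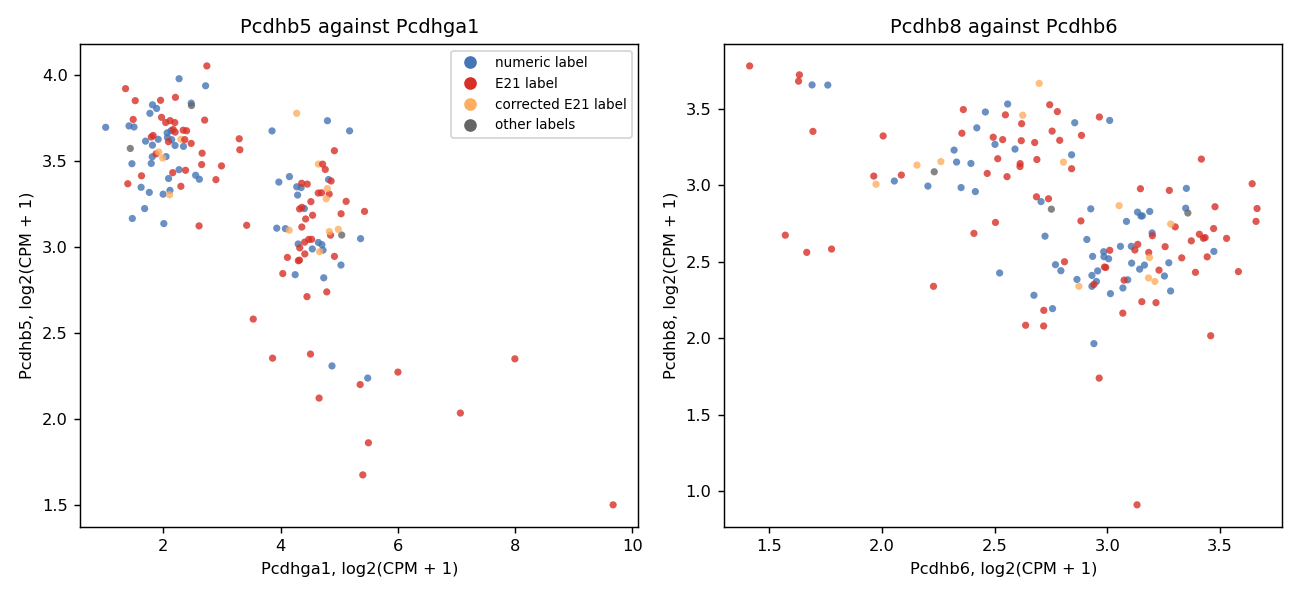
Levels as log2(CPM + 1) of Pcdhb5 against Pcdhga1 (left) and of Pcdhb8 against Pcdhb6 (right), 1 point per library, coloured by label group. The left panel shows the lower band of 70 and the upper band of 69 libraries of Pcdhga1, with the lowest Pcdhb5 levels all to the right. In the right panel the points fall from upper left to lower right (r = -0.485).

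Correlations between members were computed over the 147 libraries on the log2 scale for all 561 pairs of the 34 tested genes, as descriptions without a test. Pairs share library depth and cell make-up. The median Pearson r was 0.27 over 153 beta pairs, 0.32 over 105 gamma pairs and 0.22 over 270 beta with gamma pairs. It was 0.38 for Pcdha4 with 18 beta genes and 0.20 for Pcdha4 with 15 gamma genes. These medians include the pairs of Pcdhga1, and without them they were 0.40 within gamma, 0.23 for beta with gamma and 0.20 for Pcdha4 with gamma. That 0.40 was 0.18 without the 3 libraries that stood apart, and the median Spearman rho of the same pairs was 0.19. The median over all pairs of tested genes was 0.026, that over neighbouring tested genes 0.097 and that over tested genes within 250 kb of each other 0.080. Within the beta cluster it was 0.43 for 17 neighbouring pairs, 0.35 for pairs 2 to 5 genes apart and 0.19 for pairs 6 or more apart. Within the gamma cluster the same values, pairs of Pcdhga1 included, were 0.42, 0.34 and 0.29. After the first principal component was taken out they were 0.47, 0.29 and 0.30 within gamma. Within beta they were then 0.26, 0.19 and 0.068. The share of the Pcdhga1 pairs in the gamma values was not tested.

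The gamma value rested in part on the 3 libraries that stood apart. Without them the median r was 0.16 within gamma and 0.27 within beta. The median Spearman rho over all 147 libraries was 0.18 within gamma and 0.26 within beta. In numeric-label libraries alone the median was 0.25 within beta and 0.16 within gamma, and in E21-label libraries 0.32 and 0.41. After the first principal component was taken out, it was 0.15 within beta, 0.32 within gamma and 0.11 between them, and for Pcdha4 with beta it was 0.15. For Pcdha4 with gamma the sign changed, from 0.20 to -0.057.

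The beta genes Pcdhb5, Pcdhb6 and Pcdhb9 formed the tightest group. All of them had a lower median at the upper Pcdhga1 level, as given above. Pcdhb5 correlated with Pcdhb9 at r = 0.79 (rho 0.77) and with Pcdhb6 at 0.77 (rho 0.79), and Pcdhb6 with Pcdhb9 at 0.70 (rho 0.75). In numeric-label libraries the values were 0.75, 0.84 and 0.78 and in E21-label libraries 0.81, 0.77 and 0.65, and after the first component 0.74, 0.76 and 0.68. Across clusters Pcdhb5 correlated with Pcdhga2 at 0.69 (rho 0.60).

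Pcdhb6 and Pcdhb8, the beta pair with the most alike promoter windows, had the lowest r of the beta cluster, at -0.485 (rho -0.478). It was -0.60 in numeric-label and -0.43 in E21-label libraries, and -0.65 after the first component. With Pcdhb5 and Pcdhb9, the rest of the tightest group, Pcdhb8 had r = -0.286 and -0.19, and -0.531 and -0.474 after the first component. The windows of these pairs ranked only 40 and 47 by alignment score. At the upper Pcdhga1 level Pcdhb6 was lower and Pcdhb8 higher, as given above, and the part of that in their r was not tested. Pcdhb6 ranged from 1.66 through 6.51 to 11.7 CPM and Pcdhb8 from 0.882 through 5.79 to 12.7. Their SDs were 0.48 and 0.46 on the log2 scale, whereas that of their sum was 0.25, with a range from 7.08 through 12.8 to 18.5 CPM. Both had few whole counts, as given above, and the part of reads shared between them was not tested. The beta pairs next by alignment score, Pcdhb7 with Pcdhb9 and Pcdhb5 with Pcdhb7, had r = 0.24 and 0.14. A relation of promoter likeness to r was not tested.

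In the gamma cluster the highest pair was Pcdhga4 with Pcdhgc5, at r = 0.965 (rho 0.875). It was 0.65 in numeric-label libraries, 0.98 in E21-label libraries and 0.92 without the 3 libraries. The next were Pcdhga7 with Pcdhga10, at 0.81 (rho 0.49) and 0.48 without the 3, and Pcdhga7 with Pcdhga12, at 0.77 (rho 0.22) and 0.19 without the 3. The levels of Pcdhga7 with Pcdhga12 were at 0 and 1.12 CPM in library number 5, the lowest of all libraries for both. Pcdha4 had its highest gamma correlation with Pcdhgc5, at 0.59 (rho 0.86), and its lowest with Pcdhgc3, at -0.67 (rho -0.65). After the first component the r with Pcdhgc5 was -0.35, that with Pcdhga4 -0.568 (0.50 before) and that with Pcdhgc3 -0.531. Its highest beta correlations were with Pcdhb10 (0.64), Pcdhb7 (0.62) and Pcdhb16 (0.58), and its lowest with Pcdhb20 (0.23), and after the first component these were 0.148, 0.575, 0.21 and 0.119.

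**Figure D4:**
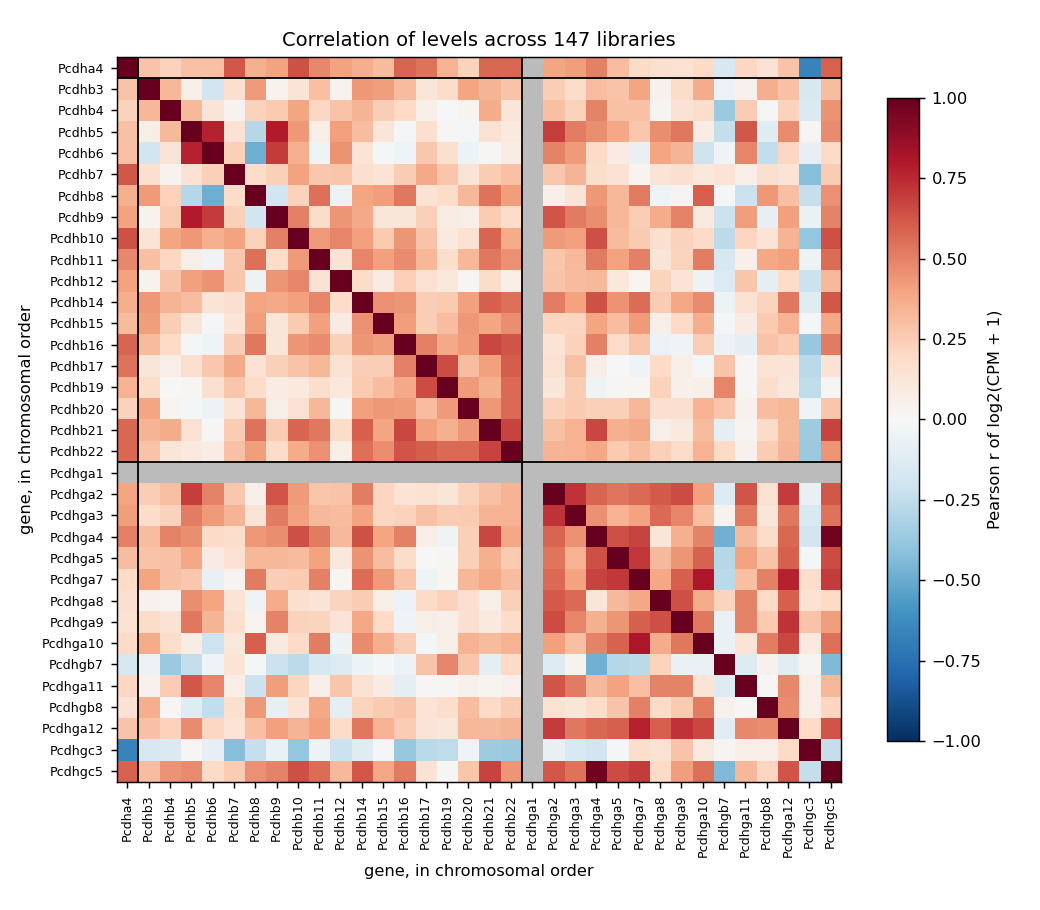
Pearson r of log2(CPM + 1) over 147 libraries for each pair of the 34 tested genes, both axes in chromosomal order, with black lines between the alpha, beta and gamma clusters. Red is positive and blue negative. Pcdhb5, Pcdhb6 and Pcdhb9 stand out as red among the beta genes, and Pcdhga1, whose values lie at 2 levels, is left out in grey.

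Each member was also set against all other tested genes, and the 10 with the highest absolute r were taken. The 74 tested genes within 1 Mb of the clusters are 0.483% of all tested. Pcdhga1 was left out as a member and struck from the lists of 10 without a replacement. At least 3 of the genes remaining lay in that region for 9 of 33 members, and for 9 members none did. For Pcdhga11 there were 8, for Pcdhb6 7 and for Pcdhb5 and Pcdhb8 6 each. The gene most like Pcdhb8 was Ndufa2, a subunit of respiratory complex I encoded within 1 Mb of the clusters, with r = -0.76 (-0.70 after the first component).

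Other members followed genes elsewhere in the genome. Pcdhgc3 was most like Gnai2 (0.82), Nherf1 (0.82) and, among genes known from astrocytes, Apoe (0.78), Aldoc (0.77) and Mfge8 (0.77). Of its 10, none lay in the region. Pcdhgc5 was most like Nrxn3 (0.97), a presynaptic adhesion gene, and Synpo (0.97), an actin-associated gene of dendritic spines. Pcdha4 was most like Map9 (0.93), Dnm3 (0.93) and, negatively, the ribosomal protein gene Rplp0 (-0.92), with the neuronal sodium channel Scn2a at 0.92. Pcdhgc5, Pcdhga4 and Pcdha4 also had the highest r with the first component, at 0.90, 0.88 and 0.77, along which Pfn1 ran at -0.95. Pcdhgc3 and Pcdhgb7 ran at -0.48 each.

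The sums of the 3 clusters were compared with one another and with scores of 9 cell types and the total count, 33 relations in all, with 2-sided permutation tests of 100000 resamples adjusted together by Benjamini-Hochberg. The smallest p they can give is 1e-05. Pcdha4 and the beta sum rose together, with r = 0.76 (p = 1e-05, adjusted p = 2.36e-05) and rho = 0.77 (p = 1e-05), and r was 0.73 without the 2 libraries farthest from the beta median. Within numeric-label libraries r was 0.76 and within E21-label libraries 0.81. The beta and gamma sums had r = 0.44 (p = 1e-05, adjusted p = 2.36e-05) and rho = 0.48 (p = 1e-05), 0.52 without the 2 farthest, and 0.45 and 0.49 within the 2 label groups. Pcdha4 and the gamma sum had r = 0.25 (p = 0.00215, adjusted p = 0.00373) and rho = 0.26 (p = 0.00124), 0.28 without the 2 farthest, 0.23 in numeric-label libraries (adjusted p = 0.131) and 0.44 in E21-label libraries. With label group and the cortical, oligodendrocyte and astrocyte scores taken out, alpha with beta was 0.77, beta with gamma 0.019 (adjusted p = 0.859) and alpha with gamma -0.071 (adjusted p = 0.527).

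All 3 clusters were higher in libraries with more medium spiny neuron signal. A score is the mean of the standardised log2 levels of a marker list, and the medium spiny neuron list held 12 genes such as Drd1, Drd2 and Ppp1r1b. Its r was 0.33 with Pcdha4 (p = 6e-05, adjusted p = 0.000132, rho 0.39 with p = 1e-05), 0.60 with the beta sum and 0.56 with the gamma sum (each p = 1e-05, adjusted p = 2.36e-05, rho 0.65 and 0.62 with p = 1e-05 each). Without the 2 farthest libraries these were 0.35, 0.62 and 0.53. In numeric-label libraries they were 0.31, 0.44 and 0.60 and in E21-label libraries 0.50, 0.73 and 0.53. After label group and the 3 scores the gamma value was 0.065 (adjusted p = 0.548), while those of alpha and beta were 0.21 and 0.25. A level in CPM is a share of the library, and the part of cell make-up in these relations was not tested.

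The microglia, astrocyte and oligodendrocyte scores ran the other way. The microglia score had r = -0.84 with Pcdha4 and -0.60 with the beta sum (each p = 1e-05, adjusted p = 2.36e-05, rho -0.79 and -0.58 with p = 1e-05 each), with -0.83 and -0.57 without the 2 farthest libraries, and -0.27 with the gamma sum (p = 0.00109, adjusted p = 0.00212, rho -0.24 with p = 0.00323), which was -0.079 with median-of-ratios scaling (permutation adjusted p = 0.39). In numeric-label libraries it was -0.80 with Pcdha4 and -0.59 with beta, and in E21-label libraries -0.87 and -0.65. With gamma it was -0.136 in numeric-label libraries (permutation adjusted p = 0.404) and -0.452 in E21-label libraries. The astrocyte score had r = -0.61 with Pcdha4, -0.45 with beta and -0.44 with gamma, and the oligodendrocyte score -0.53, -0.40 and -0.38 (for all 6, permutation p of r = 1e-05 and adjusted p = 2.36e-05, with rho between -0.28 and -0.54). In numeric-label libraries the astrocyte value with gamma was -0.18 (permutation adjusted p = 0.254), and in E21-label libraries -0.63. The oligodendrocyte precursor score had r = -0.31 with Pcdha4 (permutation adjusted p = 0.000371, rho -0.31), -0.126 with beta (permutation adjusted p = 0.14, rho -0.167) and -0.226 with gamma (permutation adjusted p = 0.00847), where rho was -0.051 (permutation adjusted p = 0.57). The cortical glutamatergic score, of 8 genes such as Slc17a7, had r = -0.46 with beta and -0.55 with gamma (each p = 1e-05, adjusted p = 2.36e-05, rho -0.47 and -0.56) and -0.046 with Pcdha4 (p = 0.581, adjusted p = 0.619, rho -0.084). With Pcdha4, beta and gamma, the interneuron score had r = 0.173, -0.240 and -0.237 (permutation adjusted p = 0.0476, 0.00544 and 0.0063). Its rho with Pcdha4 was 0.048. The meningeal fibroblast score had -0.138, -0.246 and -0.165 (permutation adjusted p = 0.111, 0.00465 and 0.058). The neuroblast score had 0.257, 0.0222 and -0.187 (permutation adjusted p = 0.00304, 0.789 and 0.0323). Total expected counts passed the threshold with none of the 3 (adjusted p = 0.0777 for alpha, 0.762 for beta and 0.127 for gamma) over all 147 libraries. Within label groups they passed with opposite signs: in numeric-label libraries r was -0.295 with alpha and -0.297 with beta (permutation adjusted p = 0.0461 each), and in E21-label libraries 0.302 with alpha (permutation adjusted p = 0.0117) and 0.254 with beta (permutation adjusted p = 0.039).

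The comparison of identifier formats asks whether the members' levels differed between rats with an E21 and rats with a numeric identifier. In limma, 5 of 34 members passed an adjusted p of 0.05 between the 76 E21-label and the 56 numeric-label libraries, 4 higher and 1 lower with the E21 label, beside 38.8% of all tested genes. The share higher was 12.3% and the share lower 26.6% of all tested genes, and 2892 rose and 2885 fell with median-of-ratios scaling, against 1878 and 4072. The median change over members was 0.0067 on the log2 scale and over all tested genes -0.029.

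Pcdhgb7 had the lowest p among members. It ran from 42.0 through a median of 56.9 to 77.6 CPM with the numeric label and from 46.8 through 66.4 to 157 with the E21 label, so the groups overlapped over most of their range. Its change was 0.26 (SE 0.044, limma adjusted p = 1.41e-06) and 0.19 with the 3 scores added (limma adjusted p = 0.000287). Pcdhga1 ran from 1.02 through 3.94 to 43.8 CPM and from 1.56 through 17.5 to 814, and 23 of 56 and 37 of 76 libraries stood at its upper level. Its change was 0.71 (SE 0.26, limma adjusted p = 0.0209), and 0.52 without the 3 libraries that stood apart (limma adjusted p = 0.0671).

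Pcdhgc5 was lower, from 95.6 through 139 to 183 CPM with the numeric label and from 3.54 through 132 to 204 with the E21 label. Its change was -0.30 (SE 0.118, limma adjusted p = 0.0334), -0.16 without the 3 libraries (limma adjusted p = 0.0935) and 0.070 with the first component added (limma adjusted p = 0.339). Pcdhb20 changed by 0.099 (SE 0.037, limma adjusted p = 0.0282) and Pcdhb19 by 0.087 (SE 0.035, limma adjusted p = 0.0422). With the 3 scores added these were 0.053 and 0.043 (limma adjusted p = 0.261 and 0.268). The cortical list differed along the same labels, with 7 of 8 genes lower and a median change of -0.90, and the medium spiny neuron list had 9 of 12 higher. With the cortical score added 8 members passed, 2 higher and 6 lower, beside 43.2% of all tested genes. With all 3 scores added 9 passed, 3 higher and 6 lower, beside 45.1%. In each of these fits 3 of the first 5 were among those that passed.

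The 12 corrected E21-label libraries were compared with the 76 E21-label libraries, which also enter the first comparison. Here 1 of 34 members passed, beside 12.5% of all tested genes (9.34% higher and 3.20% lower). It was Pcdhgb7, at 40.1 through 57 to 64.4 CPM, with a change of -0.29 (SE 0.078, limma adjusted p = 0.00706), and of -0.27 with all libraries of the table (limma adjusted p = 0.231). The groups overlapped. The median change over members was 0.014, and over all tested genes 0.024. The cortical list again differed between the groups, with 7 of 8 genes higher and a median change of 1.53.

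**Figure D5:**
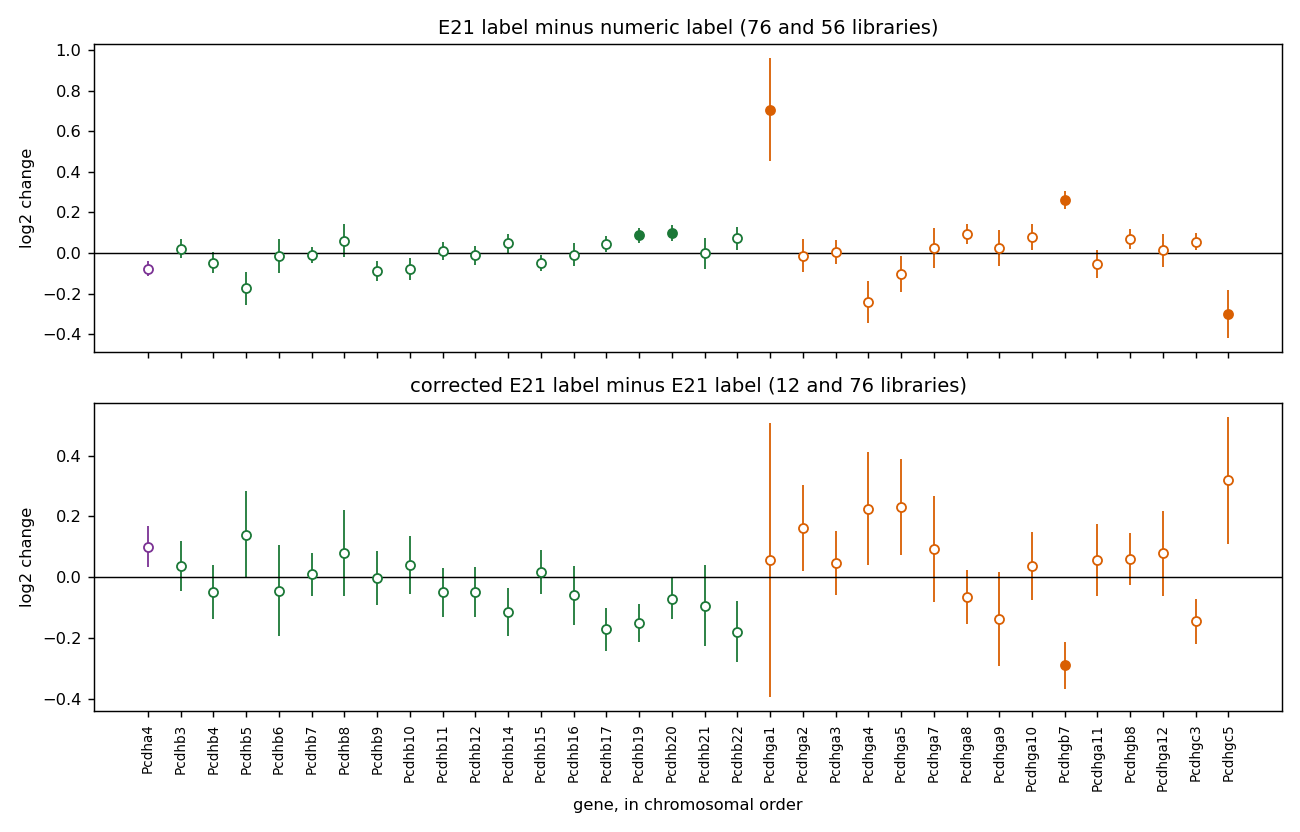
Change in log2(CPM + 1) of the 34 tested genes, in chromosomal order, between label groups (upper panel, E21 minus numeric; lower panel, corrected E21 minus E21). Points are limma estimates, bars 1 SE, filled points those with an adjusted p of at most 0.05: 5 genes in the upper panel and Pcdhgb7 in the lower.

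Genes of the machinery around the clusters were read from 3 lists. Of 18 genes of promoter choice, 11 were lower with the E21 label and none higher, and with median-of-ratios scaling 5 were lower. With that scaling 2885 of all 15255 tested genes were lower and 2892 higher. The 11 included Ctcf, the insulator protein, from 36.7 through 69.2 to 88.7 CPM over the 147 libraries, with a change of -0.11 (limma adjusted p = 0.00339), the cohesin subunit Smc1a at -0.17 (limma adjusted p = 5.65e-05) and the cohesin loader Nipbl at -0.21 (limma adjusted p = 0.00239). The cohesin subunit Rad21, at -0.0053, did not pass. Of 14 partners of the cytoplasmic part or of its cleavage, 1 was higher (Marcks, 0.20) and 3 were lower, among them the protease Adam10 (-0.15, limma adjusted p = 0.0429), whereas with median-of-ratios scaling 2 were higher and 0 lower and the list's median went from -0.027 to 0.0035. Of 10 tested non-clustered protocadherins, 4 were lower (Pcdh1, Pcdh7, Pcdh9 and Pcdh17, between -0.16 and -0.22) and none higher, with the same counts under that scaling. In the corrected comparison 1, 0 and 1 genes of these lists were higher (Smc1a and Pcdh9) and 0, 1 and 0 lower (Marcks, -0.455). Over all tested genes 9.34% were higher and 3.20% lower in it. With the 3 scores added the first comparison had 15 of 18, 8 of 14 and 7 of 10 genes of these lists lower and 0, 1 and 0 higher. In that fit 5052 of all 15327 tested genes were lower and 1861 higher. With 26.6% of all tested genes lower in the first comparison, the promoter list's 11 of 18 had a median of -0.097 beside -0.029 over all genes.

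In 12 libraries with the accumbens label Drd1 was below 100 CPM, and their members are given apart, with no test. In 11 of them Drd1 was at 7.77 CPM or less and Th, the first enzyme of dopamine synthesis, at 630 CPM or more, a midbrain profile. The 12 medium spiny neuron markers summed to 502 to 770 CPM there and to 5449 CPM or more in the 147. They include Drd1, by which the libraries were set apart, so this sum partly restates that division. Their gamma sums ran from 396 through a median of 453 to 567 CPM, all below the 833 of the lowest of the 147, while their beta sums ran from 81.4 through 96.7 to 114 and their Pcdha4 levels from 98.8 through 125 to 142. Of 34 tested members 31 had a lower median there than in the 147, as did 48.8% of all tested genes. Without overlap of ranges, 3 members were lower (Pcdhb17, Pcdhb22 and Pcdhgb7) and 0 higher, beside 6.62% of all tested genes lower and 5.66% higher.

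Pcdhgc5 showed the widest gap. It ran from 3.55 through 4.16 to 6.76 CPM in the 11 libraries, against a median of 136 in the 147, of which only library number 5 of the E21 label was as low. The other C-type gene, Pcdhgc3, ran from 177 through 229 to 300 CPM, overlapping 47 of the 147. Pcdhga12 ran from 4.52 through 6.58 to 10.7 CPM against a median of 44.1. Pcdhb3, Pcdhb7 and Pcdhb11 had higher medians there, with Pcdhb3 at 5.87 through 7.35 to 12.1 CPM against 4.90. In the remaining library, of the numeric label with 20.0 CPM of Drd1, Pcdhgc5 was at 124 CPM and Pcdhga12 at 46, both within the range of the 147. Below that range were 5 of 34 tested members, namely Pcdhb17 at 7.62, Pcdhb19 at 6.48, Pcdhb21 at 0.547, Pcdhb22 at 8.88 and Pcdhgb7 at 37.4 CPM, and none was above it. Its gamma sum of 780 and its beta sum of 93.6 CPM were also below the lowest of the 147, while Pcdha4, at 212 CPM, was within their range.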

How the data were processed

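The quantifier kallisto 0.48 is named in the submitters' processing notes. Each deposited value was read, from its range and steps, as log2 of 1 plus a gene's expected count, and it carries no scaling to library size. No label or header names the annotation. All 38272 table symbols found in RefSeq GRCr8 had a position at an end of that gene.

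The log was undone, each library was scaled to 1000000 (CPM), and log2(CPM + 1) was taken, which understates changes of low genes. Tests covered the 15327 genes whose mean reached 1 CPM. limma 3.58.1 in R 4.3.3 fitted 144 libraries of 3 label groups together, 2-sided, with a mean-variance trend. p-values were adjusted by Benjamini-Hochberg across those genes, with 0.05 as the threshold. They set a difference between label groups against the spread between rats within those groups. The fit was tested on simulated data. Correlations used numpy 2.4.6 and pandas 2.3.3, and alignments Biopython 1.88.

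The members, lists and tests were chosen with earlier results of these data known. By rule the text names the C-type genes (of 5, only 2 have an entry of their own), the 3 highest and the lowest member by mean in each cluster, the 5 highest and 3 lowest by SD, up to 6 members that passed in each comparison, the 3 highest pairs and the lowest pair by r in each cluster, and flanking genes. The lowest gamma pair, Pcdhga1 with Pcdhga11, is the exception: its pooled r is not given because Pcdhga1 lies at 2 levels. Any other gene was picked with its values in view. Of 192 labelled samples, 33 had no column in the table used and were not analysed here.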

Additional observations from a re-analysis of the deposited data

How the results depend on the processing

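Results were recomputed under the alternatives listed for each, and those using the 3 libraries lowest on the first component, the component itself or the members without Pcdhga1 were chosen after seeing the data. The number of members passing in the format comparison was 5, 4 higher and 1 lower. It was 12 with all libraries of the table (all higher, beside 48.7% of all genes tested), 3 without the filter on the mean (2 higher, beside 16.5%), 8 with the cortical score added (2 higher, beside 43.2%), 9 with the 3 scores added (3 higher, beside 45.1%) and 9 with the first component added (all higher, beside 32.0%). It was 4 to 6 under the other alternatives. With all libraries of the table the numeric label had 67 libraries in place of 56, and the E21 label 77 in place of 76. The libraries added had Drd1 below 100 CPM. In those with a midbrain profile 31 of 34 tested members had a lower median than in the 147. The part of this tissue profile in the 12 was not tested. In the corrected comparison, 1 member passed (with the cortical score added, another one, higher). With all libraries of the table it was 0 (limma, 1 at an unadjusted p under 0.05), with quantile normalization 3 and with the first component added 5. The median r of alpha with beta was 0.38, and 0.149 after the first component.

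For the relation of alpha with gamma, r was 0.232 in numeric-label libraries (adjusted p = 0.131) and -0.0705 after label group and scores, and beta with gamma was then 0.0186. Among relations to scores, with all libraries of the table the r of the beta sum with interneurons was 0.138, and those of the gamma sum were 0.0997 with the cortical, 0.00979 with the microglia, 0.444 with the interneuron and 0.615 with the neuroblast score. In numeric-label libraries total counts had -0.295 with alpha and -0.297 with beta, and precursors 0.071 with gamma. In E21-label libraries interneurons had 0.0818 with gamma. After label group and scores, alpha had 0.432 with precursors and -0.291 with interneurons, beta 0.359 with precursors, and gamma 0.106 with microglia, 0.195 with precursors, 0.191 with fibroblasts and 0.0308 with neuroblasts. After the first component total counts had -0.227 with beta. In each of these relations to scores and total counts the sign differed from that of the main value, and the cause was not tested. No paired analysis was possible because replicate numbers only follow accession order and each rat gave 1 library. A level of 1 CPM was 14.6 counts in the shallowest library, and Pcdhb1 and Pcdhb2 had means below it.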

Other observations

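A pair of tested genes inside the beta cluster, Pcdhb6l and Pcdhb16l, have symbols that the member rule does not match. Pcdhb6l had a median of 9.71 CPM and an SD of 0.22 on the log2 scale, and Pcdhb16l a median of 4.79 CPM and an SD of 0.37. Pcdhb16l was most alike to Pcdhb16 among members, with r = 0.70 (0.55 after the first component). Between the beta and gamma clusters lie Slc25a2, a mitochondrial carrier, and Taf7, a subunit of the general transcription factor TFIID. Their median r with the 34 members was 0.072 and 0.14. Before the clusters lie Ik, Wdr55, Hars1, Hars2 and Zmat2, with median r between -0.32 and 0.23, and after them Diaph1, Hdac3, Rell2, Fchsd1 and Arap3, with median r between -0.29 and 0.33. The formin gene Diaph1, next to the gamma cluster, had r = 0.74 with Pcdhgc5, and 0.50 after the first component. Zmat2 had r = -0.72 with Pcdhga4, and -0.37 after it. Of these 14 genes, 7 passed limma's adjusted p of 0.05 in the format comparison, beside 38.8% of all tested genes: Ik, Hars1, Hars2, Rell2, Fchsd1 and Arap3 were lower with the E21 label and Slc25a2 was higher. In the corrected comparison Ik, Hars1 and Rell2 passed and were higher with the corrected label (0.128, 0.193 and 0.199 on the log2 scale), beside 12.5% of all tested genes.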
